A study of Mus musculus with 6 samples.

Results

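Matrix metalloproteinases were examined in mouse brain tissue collected 7 weeks after stroke. The genes were *Mmp2*, *Mmp3*, *Mmp8*, *Mmp9*, *Mmp12*, *Mmp13*, *Mmp14*, *Mmp16*, *Mmp17*, and *Mmp24*, chosen by symbol as 10 of the 46078 genes in the count tables, and all 10 had enough counts to be tested. RNA-Seq had been performed on 3 chronic stroke infarcts and on the matching cortical region of the opposite hemisphere in 3 samples, 1 library per sample. All 6 samples came from wild type male C57BL/6J mice that the sample records place at 3 months of age, and each was taken 7 weeks after occlusion of the distal middle cerebral artery combined with hypoxia, so the contralateral cortices had also been through surgery and hypoxia and no library came from a mouse without stroke. The records do not link infarcts to contralateral cortices of the same mouse and do not state that samples of a region came from different mice, so *p* values measure the spread between these samples.

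Matrix metalloproteinases are zinc-dependent endopeptidases that are made as inactive precursors and cut collagens, laminins, proteoglycans, cytokines, and cell surface proteins once their propeptide is removed. Most are secreted, and the membrane-type enzymes are held at the cell surface by a transmembrane segment or a glycolipid anchor. In the brain they open the blood-brain barrier early after stroke and take part in later matrix remodeling, and tissue inhibitors of metalloproteinases (TIMPs) block the active enzymes. The transcript counts described here measure neither the precursor protein nor its activity.

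Transcripts of 7 of the 10 genes were higher in infarcts, 2 were lower, and 1 was not called in either direction. The genes that rose were the gelatinases *Mmp2* and *Mmp9*, the collagenases *Mmp8* and *Mmp13*, the stromelysin *Mmp3*, the macrophage elastase *Mmp12*, and the membrane-type enzyme *Mmp14*. The genes that fell were the membrane-type enzymes *Mmp17* and *Mmp24*, whereas *Mmp16* was lower by less than 2-fold. A gene was called when its adjusted *p* in the edgeR quasi-likelihood test after Benjamini-Hochberg adjustment was under 0.05 and its log2 fold change was beyond 1. By this definition 25.7% of the 15554 tested genes were higher and 20.9% were lower in infarcts. The 6 libraries did not overlap between regions for any of the 10 genes, and the same held for 72.3% of all tested genes. The median log2 fold change was 5.30 over the 10 genes and 0.03 over all tested genes. As the 10 genes were chosen with earlier results of these data known, this median is a description and not a test. Of the 13 other metalloproteinase genes, 7 could be tested, with a median of 2.60.

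Several lists of cell type markers moved with these differences. The 10 neuron markers were all lower in infarcts, and their summed level was 753 to 2191 CPM (counts scaled to library size by TMM) in infarcts but 10844 to 11983 CPM on the contralateral side. Of 10 macrophage markers, 9 were higher and *Cd163* was not called (6027 to 9704 CPM against 169 to 226 CPM). All 8 fibroblast markers were higher (7573 to 9496 CPM against 166 to 216 CPM), as were the 6 neutrophil markers that could be tested of 11 (59.0 to 74.1 CPM against 4.75 to 6.64 CPM). *Ly6g*, *Retnlg*, *Elane*, and *Mpo* were at 0 in every contralateral library and *Elane* was also at 0 in every infarct, where the neutrophil gene *Ly6g* had 0, 2, and 0 counts. Microglia markers were higher for 3 of 7 genes (847 to 879 CPM against 287 to 331 CPM). Of 7 astrocyte markers, 2 were higher, 1 was lower, and 4 were not called (5022 to 7499 CPM against 13110 to 14124 CPM), and of 7 oligodendrocyte markers, 4 were higher (4341 to 6973 CPM against 2175 to 2600 CPM). All 6 T cell markers (25.5 to 104 CPM against 0.391 to 0.627 CPM) and all 7 B and plasma cell markers were higher, the latter at 2631, 1187, and 505 CPM in infarcts 1, 2, and 3 against 95.8 to 115 CPM. In bulk tissue, fewer cells of a type and less RNA per cell cannot be told apart, and the part of these cell types in the metalloproteinase values was not tested. Library totals were 12146959 to 13427057 counts on genes in infarcts and 11943570 to 19933962 on the contralateral side.

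The promoters of the genes with the largest differences are shown first, since 3 of those genes lie close together on chromosome 9 and share a motif. In the RefSeq table on GRCm38.p6, 6 of the 10 genes had a promoter window, and *Mmp2*, *Mmp9*, *Mmp16*, and *Mmp17* had none. The 250 bases before the annotated start are given on the gene strand, 5′ to 3′, and capitals mark a match to TGANTCA, the sequence bound by AP-1 (Fos and Jun family dimers), searched on both strands. The windows are chr9:7445572-7445821 for *Mmp3*, chr9:7272264-7272513 for *Mmp13*, and chr9:7347124-7347373 for the more downstream annotated start of *Mmp12*, all on the plus strand. *Mmp24*, at chr2:155775092-155775341 on the plus strand, is shown as the only one of *Mmp16*, *Mmp17*, and *Mmp24* that had a window.
Mmp3: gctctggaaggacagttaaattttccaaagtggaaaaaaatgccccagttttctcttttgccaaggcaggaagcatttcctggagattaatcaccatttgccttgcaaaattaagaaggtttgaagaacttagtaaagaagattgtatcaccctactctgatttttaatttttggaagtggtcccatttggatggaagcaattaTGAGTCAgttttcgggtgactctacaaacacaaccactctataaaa
Mmp13: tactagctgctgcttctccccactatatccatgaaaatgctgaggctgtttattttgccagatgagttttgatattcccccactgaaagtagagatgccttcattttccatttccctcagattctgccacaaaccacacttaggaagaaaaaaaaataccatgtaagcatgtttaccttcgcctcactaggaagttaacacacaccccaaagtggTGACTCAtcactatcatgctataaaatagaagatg
Mmp12: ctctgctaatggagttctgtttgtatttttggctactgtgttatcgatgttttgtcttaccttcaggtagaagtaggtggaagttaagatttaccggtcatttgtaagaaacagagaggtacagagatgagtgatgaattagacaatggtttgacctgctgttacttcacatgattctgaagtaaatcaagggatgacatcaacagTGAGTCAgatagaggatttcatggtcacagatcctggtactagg
Mmp24: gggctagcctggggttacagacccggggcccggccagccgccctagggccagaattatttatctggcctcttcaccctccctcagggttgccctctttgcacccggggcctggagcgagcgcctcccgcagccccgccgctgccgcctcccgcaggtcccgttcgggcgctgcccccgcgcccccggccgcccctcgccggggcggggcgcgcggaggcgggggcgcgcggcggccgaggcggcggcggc
The motif began 46 bases before the start of *Mmp3*, 35 bases before that of *Mmp13*, and 44 bases before that of *Mmp12*. It was absent from the other *Mmp12* window and from the windows of *Mmp8*, *Mmp14*, and *Mmp24*. Over all 32851 windows of this length, 6.75% held it. The letters TATAAA, searched on the gene strand, were found in the *Mmp3* and *Mmp13* windows and in 7.59% of all windows. The *Mmp24* window was 79.2% G and C, against a median of 52.4% over all windows, and the *Mmp3* window was 37.6%. The motif was chosen as a known metalloproteinase promoter element after expression values had been seen, and a match in these letters is not evidence of binding.

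The gelatinases cut denatured collagen and basement membrane proteins. *Mmp2* (ENSMUSG00000031740), on chromosome 8 at 92827291 to 92853420 of GRCm38, was at 173, 199, and 200 CPM in infarcts 1, 2, and 3 and at 2.61, 3.13, and 3.42 CPM in the contralateral cortices. Its libraries were close to each other within each region and far apart between them. The difference was 63.0-fold (log2 fold change 5.98, SE 0.16, adjusted *p* = 1.46e-07 in the edgeR quasi-likelihood test after Benjamini-Hochberg adjustment), and *Mmp2* had rank 4 by *p* among all genes called higher. *Mmp9* (ENSMUSG00000017737), on chromosome 2 at 164940780 to 164955850, was at 49.6, 38.1, and 28.1 CPM in infarcts and 1.20, 1.63, and 1.94 CPM on the contralateral side. The lowest infarct library was well above the highest contralateral one, with a 24.7-fold difference (log2 fold change 4.63, SE 0.28, adjusted *p* = 9.20e-07, edgeR). Per kilobase of exon, *Mmp2* reached 56.6 ± 4.48 RPKM (CPM per kilobase of exon; SD, n = 3) in infarcts and *Mmp9* 10.9 ± 3.04 RPKM.

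The stromelysin, elastase, and collagenases *Mmp3*, *Mmp12*, *Mmp13*, and *Mmp8* were nearly absent from contralateral cortex. *Mmp3* (ENSMUSG00000043613; chromosome 9, 7445822 to 7455975), which cuts proteoglycans and can activate other metalloproteinase precursors, had 7476, 5614, and 4757 counts in infarcts against 0, 1, and 11 on the contralateral side. *Mmp12* (ENSMUSG00000049723; chromosome 9, 7344381 to 7369499), the elastin-cutting enzyme of macrophages, had 7852, 10290, and 8223 counts in infarcts against 1, 3, and 11. *Mmp13* (ENSMUSG00000050578; chromosome 9, 7272514 to 7283331), the main interstitial collagenase of rodents, had 6088, 14398, and 16310 counts in infarcts against 0, 12, and 11. Infarct 1 thus had the most *Mmp3* and the least *Mmp13* of the infarcts, while contralateral cortex 3 had 11 counts of each gene although it was the smallest library. On the CPM scale these counts in contralateral cortex 3 were 0.229% of the infarct mean for *Mmp3*, 0.157% for *Mmp12*, and 0.115% for *Mmp13*.

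The log2 fold changes of *Mmp3*, *Mmp12*, and *Mmp13* were 10.60 (SE 0.98), 10.84 (SE 0.67), and 10.68 (SE 0.83), with adjusted *p* of 3.62e-05, 3.41e-06, and 3.92e-05 in the edgeR quasi-likelihood test after Benjamini-Hochberg adjustment. All 3 calls held when any 1 library was left out, but the size depended on the few contralateral counts. Without contralateral cortex 3 the log2 fold change was 12.34 for *Mmp12* and a fitted 13.53 for *Mmp3*, which then had 1 contralateral count, and without contralateral cortex 1 it was 9.82 for *Mmp3*, 10.16 for *Mmp12*, and 9.94 for *Mmp13*. *Mmp8* (ENSMUSG00000005800; chromosome 9, 7558456 to 7568485), a collagenase best known from neutrophil granules, had 124, 154, and 127 counts in infarcts and 0, 1, and 0 on the contralateral side. As this comparison rests on 405 counts against 1, the ratio of scaled counts was 450 with an exact 95% interval of 80.3 to 17808.5, which covers counting error only. *Mmp8* passed the test (adjusted *p* = 9.77e-07, edgeR) and had a fitted log2 fold change of 8.34 (SE 1.25), which became 7.71 without contralateral cortex 1. Without contralateral cortex 2 the other contralateral counts were 0, and *Mmp8* was at least 45.9-fold higher when 3 counts were assumed for each. Among the 11 neutrophil markers, *S100a8*, *S100a9*, *Csf3r*, *Cxcr2*, *Ngp*, and *Ltf* were called higher, with a median log2 fold change of 4.58 over these 6, while *Ly6g*, *Retnlg*, *Camp*, *Elane*, and *Mpo* had at most 13 counts in any infarct and were not tested. Their part in the *Mmp8* values was not tested.

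**Figure D1:**
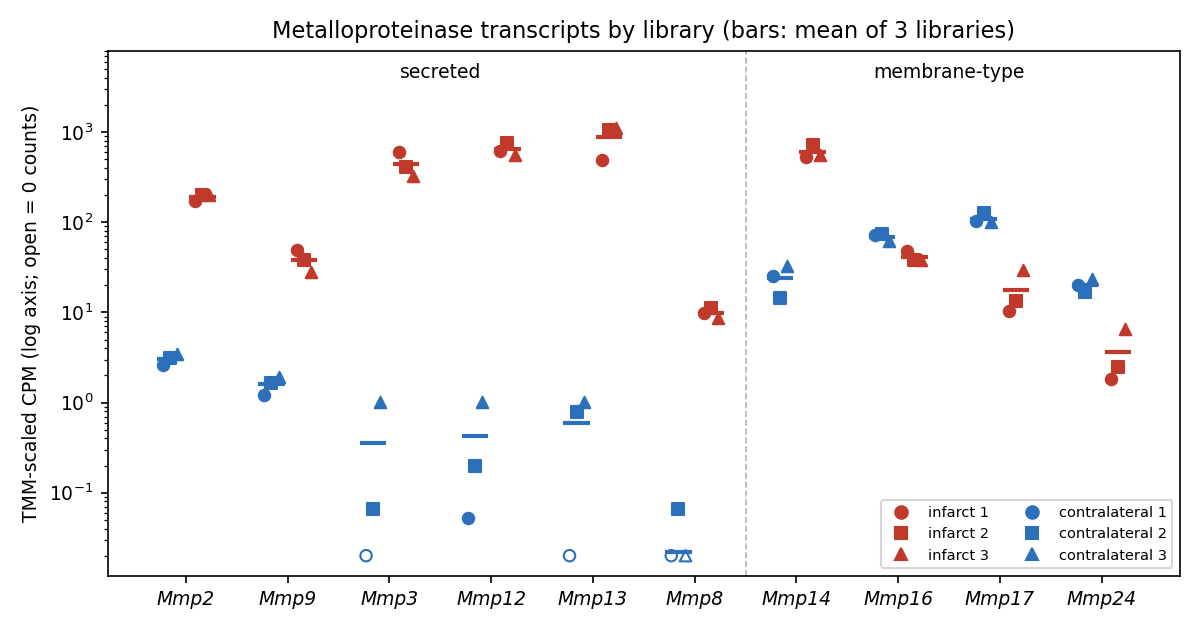
TMM-scaled CPM (vertical log axis) of the 10 metalloproteinase genes in the 3 infarct (red) and 3 contralateral (blue) libraries, with a mark per library, bars at the mean of 3, and open marks at the foot for 0 counts. *Mmp3*, *Mmp12*, *Mmp13*, and *Mmp8* have 12 counts or fewer in each contralateral library, *Mmp2*, *Mmp9*, and *Mmp14* start from a measurable contralateral level, and *Mmp16*, *Mmp17*, and *Mmp24* are lower in infarcts.

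These 4 genes belong to a group of 10 metalloproteinase genes on chromosome 9 that spans 427072 bases, from 7272514 to 7699585. In order, the genes are *Mmp13*, *Mmp12*, *Mmp1b*, *Mmp3*, *Mmp1a*, *Mmp10*, *Mmp8*, *Mmp27*, *Mmp20*, and *Mmp7*. The group held 21558, 30481, and 29445 counts in the infarcts and 1, 17, and 33 counts in the contralateral cortices. These were 0.177%, 0.244%, and 0.219% of all counts on genes in the infarct libraries. Not every gene of the group was detected. *Mmp1a*, *Mmp1b*, *Mmp7*, and *Mmp20*, which lie between or beside the others, had 0 counts in all 6 libraries. *Mmp10*, another stromelysin, had 5, 10, and 10 counts in infarcts and 0 in each contralateral cortex, too few for the test, and was at least 2.89-fold higher when each contralateral library was set to 3 counts. *Mmp27* had 13, 15, and 18 counts against 0 in each contralateral cortex and was at least 5.35-fold higher by the same bound (adjusted *p* = 0.000358, edgeR). *Mmp12* shares 2.17% of its exon bases with *Mmp1b* on the opposite strand, and *Mmp1b* had no counts.

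**Figure D2:**
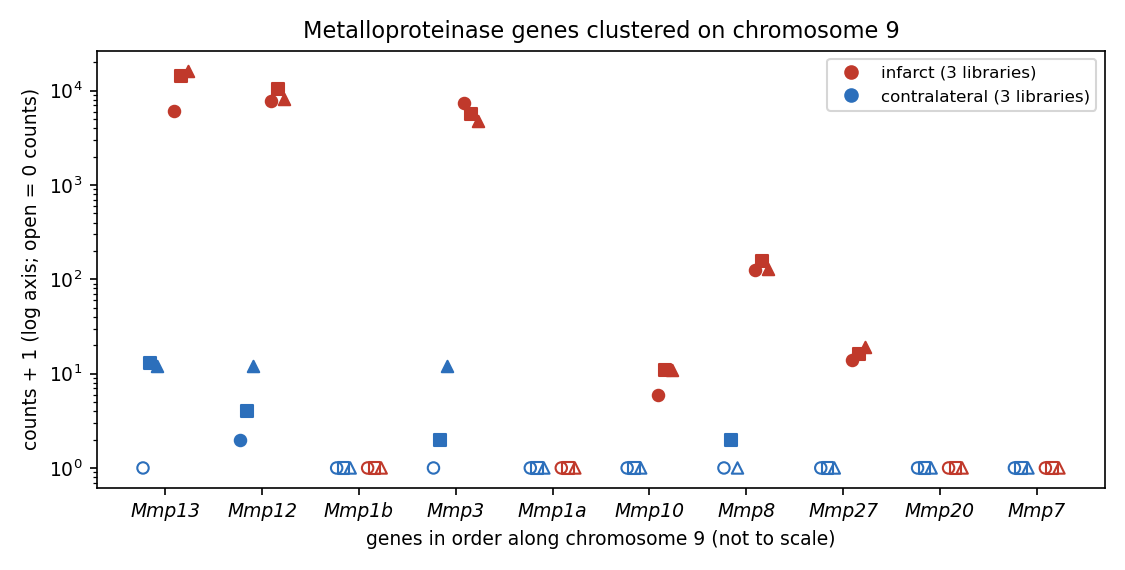
Counts plus 1 (vertical log axis) for the 10 metalloproteinase genes of chromosome 9 in their order along the chromosome, spacing not to scale, in 3 infarct (red) and 3 contralateral (blue) libraries; circles, squares, and triangles are libraries 1, 2, and 3, and open marks are 0 counts. *Mmp13*, *Mmp12*, and *Mmp3* have 4757 counts or more in every infarct, and 4 genes are at 0 in every library.

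The membrane-type enzymes moved in different directions. *Mmp14* (ENSMUSG00000000957; chromosome 14, 54431612 to 54445364), a transmembrane collagenase that with *Timp2* activates the *Mmp2* precursor, was at 525, 713, and 551 CPM in infarcts and at 25.3, 14.4, and 32.9 CPM on the contralateral side. The contralateral libraries differed among themselves by more than those of *Mmp2*, yet all were far below the infarcts. Its difference was 24.7-fold (log2 fold change 4.63, SE 0.28, adjusted *p* = 2.85e-06 in the edgeR quasi-likelihood test after Benjamini-Hochberg adjustment).

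*Mmp17* (ENSMUSG00000029436; chromosome 5, 129584169 to 129611099), which has a glycolipid anchor, was at 10.4, 13.2, and 29.4 CPM in infarcts and at 102, 126, and 101 CPM on the contralateral side. *Mmp24* (ENSMUSG00000027612; chromosome 2, 155775342 to 155818366), a transmembrane enzyme of neurons that cuts N-cadherin, was at 1.83, 2.50, and 6.55 CPM in infarcts and at 20.0, 16.9, and 23.3 CPM on the contralateral side. For both genes infarct 3 was the highest infarct and was still well below the contralateral range. *Mmp17* fell by 2.63 on the log2 scale (SE 0.36, adjusted *p* = 0.000499, edgeR), which is 6.18-fold. *Mmp24* fell by 2.45 (SE 0.41, adjusted *p* = 0.00102, edgeR), or 5.46-fold. Its log2 fold change was -3.18 without infarct 3 and -2.11 without infarct 1, the ends of its range when 1 library was left out. Of the exon bases of *Mmp24*, 13.6% overlap *BC029722* on the opposite strand, which had 47 to 107 counts in infarcts and 63 to 95 on the contralateral side, and the strand setting of the counting is not given in the sources used here.

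*Mmp16* (ENSMUSG00000028226; chromosome 4, 17852893 to 18119145), another transmembrane enzyme that can activate the *Mmp2* precursor, was at 48.3, 38.6, and 38.0 CPM in infarcts and at 71.6, 74.0, and 61.3 CPM on the contralateral side. The regions did not overlap and the adjusted *p* was 0.00258 (edgeR quasi-likelihood test after Benjamini-Hochberg adjustment), but the log2 fold change of -0.73 (SE 0.16) was within the limit of 1, so *Mmp16* was not called. In the infarcts, *Mmp17* stood at 9.51%, 12.1%, and 26.8% of its contralateral mean in libraries 1, 2, and 3. *Mmp24* stood at 9.13%, 12.4%, and 32.7%, and the summed neuron markers at 6.63%, 8.61%, and 19.3%. *Mmp17*, *Mmp24*, and the neuron markers had the same order of infarcts, with infarct 3 the highest. This order was not particular to neuron markers, since summed astrocyte markers (5022, 5421, and 7499 CPM) and oligodendrocyte markers (4341, 5001, and 6973 CPM) had it as well. *Mmp16* stood at 70.1%, 56.0%, and 55.1%, with infarct 1 the highest. Other marker sums had this order too, among them oligodendrocyte precursor markers (596, 462, and 447 CPM) and macrophage markers (9704, 8326, and 6027 CPM). Unlike *Mmp16*, both of these sums were above the contralateral side in every infarct. Of the 5 precursor markers, however, only *Pdgfra* was called higher, and it is also on the list of fibroblast markers. *Cspg4*, *Gpr17*, *Vcan*, and *Olig1* were not called, and the median log2 fold change of the precursor list was 0.29. The ratio of *Mmp16* to *Mmp17*, per kilobase, was 3.54, 2.23, and 0.987 in infarcts and 0.536, 0.449, and 0.463 on the contralateral side. That of *Mmp16* to *Mmp24* was 14.3, 8.36, and 3.14 in infarcts and 1.93, 2.36, and 1.42 on the contralateral side. Both ratios were higher in all 3 infarcts, by 2.04 and 1.95 on the log2 scale (two-sided exact permutation *p* = 0.1 for each, the smallest that 3 against 3 libraries can give, and 0.15 when adjusted over 6 ratios). The ratio of *Mmp17* to *Mmp24* was 3.18 to 4.03 in infarcts and 3.07 to 5.26 on the contralateral side and overlapped between regions (exact permutation *p* = 0.9, adjusted 0.9). The part of these or other cell types in the values of *Mmp16*, *Mmp17*, and *Mmp24* was not tested.

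**Figure D3:**
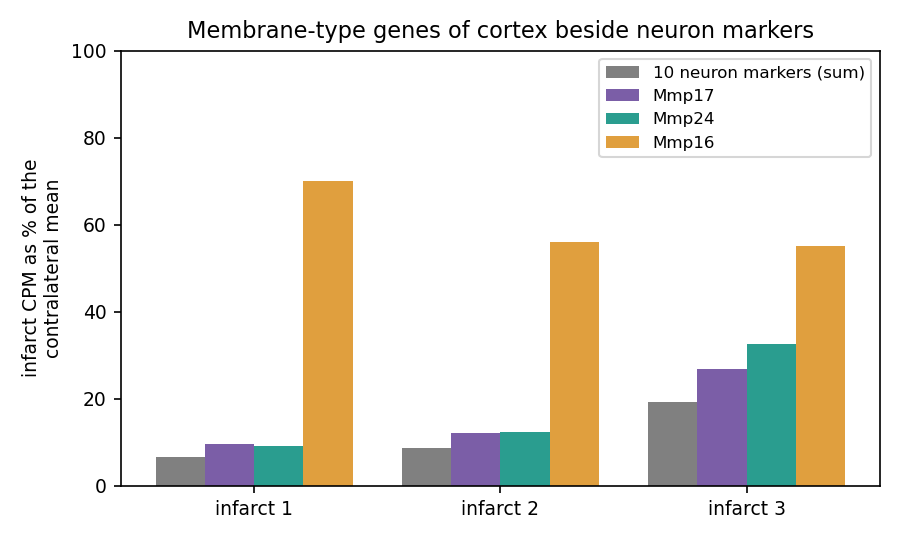
Level of *Mmp17*, *Mmp24*, and *Mmp16* and the summed level of 10 neuron markers in each infarct library, as a percent of the contralateral mean CPM (vertical axis, from 0). *Mmp17* and *Mmp24* range from 9.13% to 32.7%, the neuron markers from 6.63% to 19.3%, and *Mmp16* from 55.1% to 70.1%. Astrocyte and oligodendrocyte marker sums, not drawn, also had infarct 3 the highest.

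Levels were compared between genes only per kilobase of exon. In infarcts the order was *Mmp13* (331 ± 130 RPKM, SD, n = 3), *Mmp3* (247 ± 76.7), *Mmp14* (100 ± 17.1), *Mmp12* (89.5 ± 13.7), *Mmp2* (56.6 ± 4.48), *Mmp9* (10.9 ± 3.04), *Mmp16* (4.81 ± 0.669), *Mmp8* (4.10 ± 0.545), *Mmp17* (2.67 ± 1.55), and *Mmp24* (0.774 ± 0.546). The ranges of *Mmp13* and *Mmp3* overlapped, as did those of *Mmp14* and *Mmp12*, of *Mmp16* and *Mmp8*, and of *Mmp8* and *Mmp17*. As the genes were measured in the same libraries, overlap does not show equal levels, and no test was run. *Mmp14* was above *Mmp12* in each infarct (88.2, 120, and 92.5 against 86.4, 104, and 77.5 RPKM). By the longest coding transcript it was below in infarct 1 (162 against 173 RPKM). The order within each other pair changed between infarcts. In contralateral cortex *Mmp17* was first (16.6 ± 2.13 RPKM), then *Mmp16* (7.96 ± 0.780), *Mmp24* (4.28 ± 0.676), *Mmp14* (4.06 ± 1.57), *Mmp2* (0.905 ± 0.121), and *Mmp9* (0.449 ± 0.105). *Mmp13*, *Mmp3*, *Mmp12*, and *Mmp8* had means of 0.224, 0.200, 0.0582, and 0.00895 RPKM, and the libraries of each overlapped those of the next, as did those of *Mmp9* and *Mmp13*. *Mmp24* and *Mmp14* also overlapped, and their order turned when the longest coding transcript was used as the length (4.66 and 7.48 RPKM). With that length *Mmp14* and *Mmp12* were at 184 and 179 RPKM in infarcts, and *Mmp14* then overlapped *Mmp3*.

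Summed over the 10 genes, the level was 764, 930, and 848 RPKM in infarcts and 33.3, 35.4, and 35.5 RPKM on the contralateral side. *Mmp16*, *Mmp17*, and *Mmp24* together made up 83.9%, 88.2%, and 77.0% of that sum in contralateral cortex 1, 2, and 3 and 0.988%, 0.751%, and 1.21% in the infarcts. These 3 genes thus held most of this sum in each contralateral cortex and almost none of it in any infarct. They were grouped beforehand as enzymes of normal cortex, so this contrast is a description and not a test. Their own sum had a mean of 28.8 RPKM in contralateral cortex and 8.25 RPKM in infarcts. That of the other genes among the 10 was 5.91 and 839 RPKM. Membrane-type *Mmp14* and *Mmp15*, outside the 3, had contralateral means of 4.06 and 4.10 RPKM, near the 4.28 of *Mmp24*. The sum covers only the 10 chosen genes, and the choice affects these shares. Over all 23 metalloproteinase genes, the 3 genes held 71.0%, 76.0%, and 65.3% in contralateral cortex 1, 2, and 3. In infarcts 1, 2, and 3 they held 0.927%, 0.718%, and 1.16% of that wider sum. Within the infarcts, *Mmp3* was the largest share in infarct 1 (43.3%, against 23.8% for *Mmp13*), while *Mmp13* was the largest in infarcts 2 (42.5%, against 24.6% for *Mmp3*) and 3 (49.1%, against 21.3%). *Mmp14* had a mean share of 11.8% in infarcts (10.9% to 12.9%) and 11.7% on the contralateral side (6.83% to 15.6%). That of *Mmp9* was 1.31% (0.937% to 1.84%) and 1.29% (1.02% to 1.54%). The means were close, but the shares varied between libraries.

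**Figure D4:**
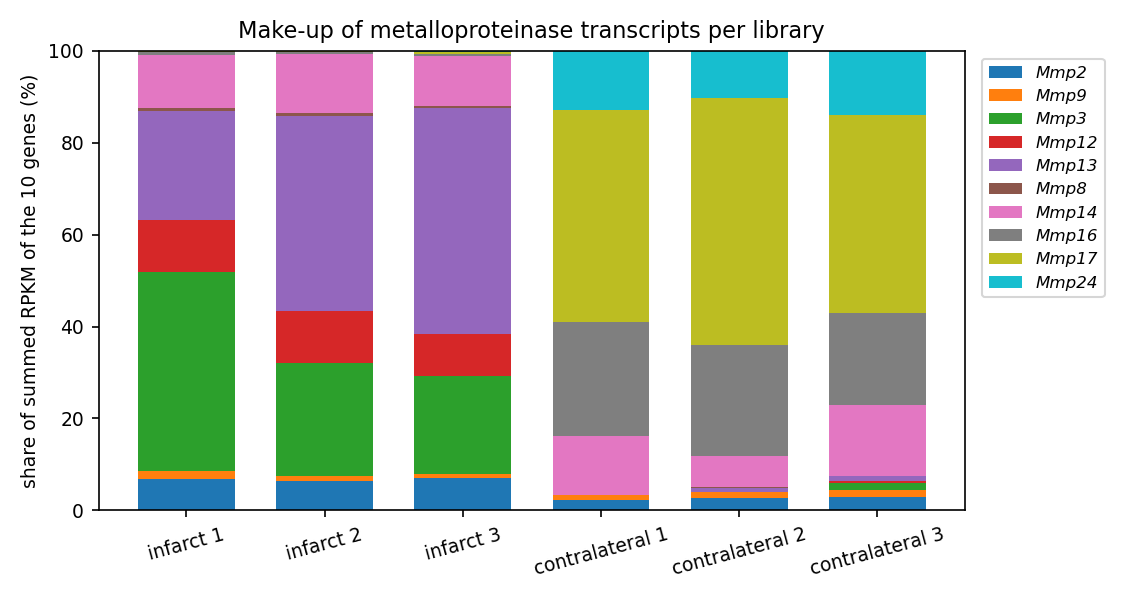
Share of the summed RPKM of the 10 genes (vertical axis, %) that falls on each gene, with a stacked bar for each of the 6 libraries. *Mmp16*, *Mmp17*, and *Mmp24* fill 77.0% to 88.2% of the contralateral bars and at most 1.21% of the infarct bars, where *Mmp3* and *Mmp13* are the largest shares.

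Of the 13 other metalloproteinase genes, 7 could be tested, of which 5 were higher and 2 were not called. *Mmp19*, a secreted enzyme of basement membrane turnover, had 896, 1030, and 888 counts in infarcts and 15, 13, and 4 on the contralateral side (log2 fold change 6.62, SE 0.27, adjusted *p* = 1.64e-07, edgeR), although 28.3% of its exon bases overlap genes on the opposite strand. *Mmp11*, a stromelysin activated inside the cell by furin, had 765, 508, and 402 counts against 20, 14, and 11 (log2 fold change 5.39, SE 0.35, adjusted *p* = 1.42e-06, edgeR). *Mmp27* was described above with its neighbors. *Mmp25*, a glycolipid-anchored enzyme known from leukocytes, rose by a log2 fold change of 2.60 (SE 0.46). *Mmp23* rose by 2.16 (SE 0.54) on 17 to 27 counts against 3 to 10, or by 2.81 without contralateral cortex 2 and 1.81 without contralateral cortex 1. *Mmp15*, a transmembrane enzyme, had a log2 fold change of -0.40 (adjusted *p* = 0.0869, edgeR) and the secreted *Mmp28* one of 0.99 (adjusted *p* = 0.00975, edgeR), just within the limit of 1. *Mmp21* had 0, 0, and 1 counts in infarcts and 6, 0, and 0 on the contralateral side and was not tested. By class, and with *Mmp23* in neither, 2 of the 6 membrane-type genes were higher, 2 were lower, and 2 were not called. Of 16 secreted genes, 10 were tested, 9 were higher, and none was lower, and 4 had 0 counts in every library. *Mmp3*, *Mmp8*, *Mmp12*, *Mmp13*, and *Mmp27* were among those that entered the test through their infarct counts, so they could not have been called lower. The classes are thus not compared on equal terms. Over all tested genes 25.7% were higher.

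Inhibitors rose as well. Among all tested genes, 25.7% were called higher and 20.9% lower. Of 7 inhibitor genes, 6 were higher in infarcts and *Timp4* was not called, with 89, 77, and 183 counts against 223, 187, and 118 and a log2 fold change of -0.46 (adjusted *p* = 0.182, edgeR). *Timp1*, which inhibits most secreted metalloproteinases, had 547, 605, and 652 counts in infarcts and 31, 13, and 22 on the contralateral side (log2 fold change 4.90, SE 0.26, adjusted *p* = 5.13e-07, edgeR). *Timp2* and *Timp3*, which were already abundant in contralateral cortex, rose by log2 fold changes of 2.23 (SE 0.16) and 1.50 (SE 0.13), and 21.3% of the exon bases of *Timp3* overlap *Syn3* on the opposite strand. *A2m*, a broad protease trap of plasma, rose by 7.24 (SE 0.30), with 2857, 3346, and 6360 counts against 31, 34, and 24. *Tfpi2*, a serine protease inhibitor of the matrix, had 51, 135, and 67 counts against 2, 0, and 0, a ratio of 140 with an exact 95% interval of 38.5 to 1166 for counting error. The 2 contralateral counts of *Tfpi2* came from cortex 1, without which it was at least 26.2-fold higher with the other libraries set to 3 counts each, and the fitted log2 fold change moved from 6.89 to 9.37, a value that depends on the prior count. *Reck*, a membrane-anchored inhibitor, rose by 1.09 (SE 0.21) and was not called without contralateral cortex 3 (0.93).

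The 6 secreted genes *Mmp2*, *Mmp3*, *Mmp8*, *Mmp9*, *Mmp12*, and *Mmp13* summed to 668, 803, and 745 RPKM in infarcts and to 1.12, 1.77, and 2.64 RPKM on the contralateral side. *Timp1* to *Timp4* summed to 245 to 263 RPKM in infarcts and 45.2 to 55.6 RPKM on the contralateral side. Transcripts of these 6 genes were thus 2.56, 3.06, and 3.04 times those of TIMPs in infarcts and 0.0202, 0.0391, and 0.0482 times on the contralateral side. Other secreted genes were left out of the sum, and with them these ratios would be higher. Among them, mean levels in infarcts and contralateral cortex were 15.1 and 0.357 RPKM for *Mmp11*, 19.6 and 0.189 for *Mmp19*, and 1.94 and 0.970 for *Mmp28*. For single enzymes, the ratio of *Mmp2* to *Timp2* was higher in infarcts by 3.73 on the log2 scale and that of *Mmp14* to *Timp2* by 2.45 (two-sided exact permutation *p* = 0.1 for each, 0.15 adjusted over 6 ratios), with no overlap between regions. The ratio of *Mmp9* to *Timp1* was 0.286, 0.215, and 0.159 in infarcts and 0.186, 0.483, and 0.240 on the contralateral side, which overlapped (log2 difference -0.38, exact permutation *p* = 0.6, adjusted 0.72).

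**Figure D5:**
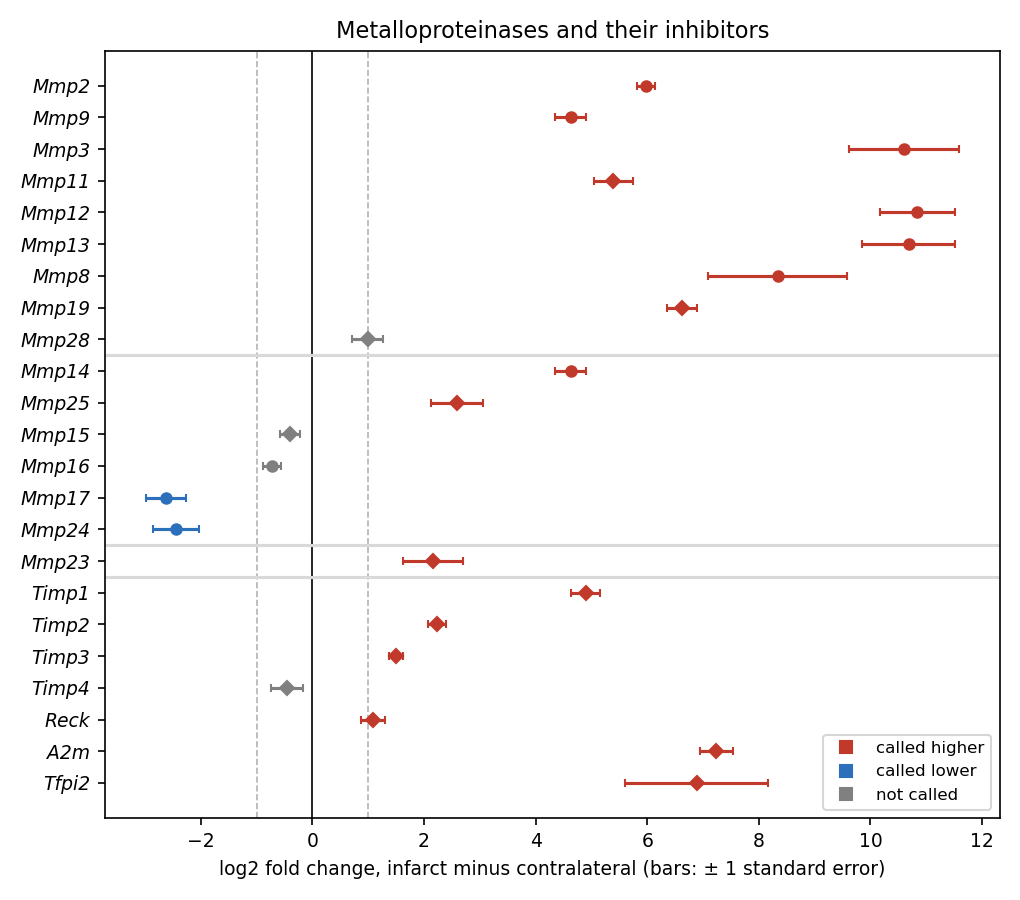
Log2 fold change of infarct minus contralateral cortex (horizontal axis, bars of 1 standard error, 3 libraries per region) for 16 metalloproteinase genes and 7 inhibitors, with circles for the 10 genes and diamonds for the others, gray lines between secreted, membrane-type, *Mmp23*, and inhibitor genes, and dashed lines at a log2 fold change of 1 in each direction. *Mmp3*, *Mmp12*, and *Mmp13* lie above 10, and *Mmp17* and *Mmp24* are the called genes below 0. *Mmp27*, tested against 0 counts, is left out.

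Genes that act on metalloproteinase precursors rose in most cases. Of 17 activators and their regulators, 11 could be tested, 10 were higher, none was lower, and *Pcsk7*, a proprotein convertase, was not called (log2 fold change 0.86). The median over the list was 2.91, against 0.03 over all tested genes, of which 25.7% were higher and 20.9% lower. *Plau* and *Plat*, the plasminogen activators of urokinase and tissue type, rose by log2 fold changes of 4.96 (SE 0.27) and 2.91 (SE 0.16), and *Furin*, the convertase that removes the propeptide of *Mmp14*, rose by 1.60 (SE 0.17). *Plg*, *Ctsg*, *Elane*, *Cma1*, *Mcpt4*, and *Tpsb2* had too few counts to test. Of 10 binding partners and clearance receptors, 8 were higher and *Itgav* (0.01) and *Bsg* (0.23) were not called, with a list median of 3.06. *Cd44*, the hyaluronan receptor that docks *Mmp9* at the cell surface, rose by 5.49 (SE 0.16), *Thbs2* by 4.10 (SE 0.18), and the endocytic receptor *Lrp1*, which clears several metalloproteinases, by 1.72 (SE 0.21).

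Of 16 cytokines and growth factors known to induce metalloproteinases, 14 could be tested and 13 were higher, with a median log2 fold change of 2.71, while *Egf* was not called and *Il6* and *Csf2* were not tested. The most abundant of them were *Tgfb1* (log2 fold change 4.55, SE 0.20), *Csf1* (2.57, SE 0.17), and *Fgf2* (1.99, SE 0.17). Of 18 transcription factors that act on metalloproteinase promoters, 8 were higher, 3 were lower, and 7 were not called, with a median of 0.85. By the same calls 25.7% of all tested genes were higher and 20.9% lower, with a median of 0.03. *Ets1* (2.59, SE 0.23), *Stat3* (2.18, SE 0.16), and *Rela* (2.05, SE 0.15) rose, and *Etv5* (-1.75, SE 0.19), *Fosb* (-1.96, SE 0.24), and *Etv4* (-1.93, SE 0.28) fell. Among the Fos and Jun genes, whose products bind the motif printed above for *Mmp3*, *Mmp13*, and *Mmp12*, *Fosb* fell and the others were within the fold change limit. *Junb* had a log2 fold change of 0.98 (adjusted *p* = 0.0014), *Jun* one of 0.72 (adjusted *p* = 0.0205), and *Fosl2* one of 0.48 (adjusted *p* = 0.0339) in edgeR, so that these 3 pass as higher when no fold change is required. *Jund* (-0.49, adjusted *p* = 0.0409) passes as lower in the same way, and *Fos* (0.10) and *Fosl1* (-0.51) had adjusted *p* of 0.76 and 0.224 in edgeR. On the opposite strand, *Ccdc85b* overlaps 57.2% of the exon bases of *Fosl1*, and *Gm11175* overlaps 52.6% of those of *Jund*. The strand setting of the counting is not given, so the values of *Fosl1* and *Jund* may hold reads of these neighbors. *Atf3*, whose product can pair with Jun proteins, had 279, 319, and 283 counts in infarcts against 2, 2, and 3 and was called higher (log2 fold change 7.04, SE 0.44, adjusted *p* = 2.18e-07, edgeR). *Ets2* (-0.60) was not called either.

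Of 22 metalloproteinase substrates, 18 were higher, 2 were lower, and 2 were not called, with a median log2 fold change of 2.99. For comparison, 25.7% of all tested genes were higher and 20.9% lower, at a median of 0.03. The fibrillar collagens *Col3a1* (7.35, SE 0.23) and *Col1a2* (6.45, SE 0.22) rose, as did the myelin gene *Mbp* (1.29, SE 0.23). *Ncan*, a proteoglycan of perineuronal nets, fell by 1.86 (SE 0.22), and *Cdh2*, the N-cadherin that *Mmp24* cuts, fell by 1.30 (SE 0.24). *Bcan* (-0.49) and *Vcan* (0.82) were not called. *Col1a2* and *Col3a1* are also on the list of fibroblast markers.

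For 4 of the genes, the closest profiles were sought among the 15544 tested genes outside the 10, by the root mean square difference of log2 CPM centered on the mean over the 6 libraries. This measure is set mainly by the size of the difference between regions and says nothing of shared control. *Mmp24* was closest to *Sprn* (0.0529), *Actr3b* (0.0743), and *Gm9866* (0.0989), whose log2 fold changes were -2.50, -2.37, and -2.52. *Mmp14* was closest to *Tnfaip8l2* (0.105), the inhibitor *Timp1* (0.153), and the collagen gene *Col6a2* (0.217). *Mmp12* had no profile as close, with *Cd5l* (0.444), a secreted protein of macrophages, *Atp6v0d2* (0.477), a proton pump subunit of osteoclasts and macrophages, and complement *C3* (0.481). *Mmp2* was closest to *Gdf3* (0.153) and *Ear2* (0.155), which had no counts in any contralateral library, so that their distance depends on the prior count, and then to *Serpina3n* (0.210).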

How the data were processed

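Strand-specific mRNA libraries were made from tissue RNA. Per the labels and the paper's methods, the authors demultiplexed reads with bcl2fastq 2.19, trimmed them with Trimmomatic 0.32, aligned them to GRCm38 with STAR 2.5.2b, and made the deposited counts per Ensembl gene with HTSeq, as raw whole-number counts without normalization, 1 table per sample. The HTSeq version, annotation, and strand setting are not given in the sources used here. Entries that name no gene (26.6% to 34.3% of tallied reads) were left out. Of 46078 identifiers, 45229 matched GENCODE M21 and 849 did not, and the latter were kept in the tests.

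The analysis used edgeR 4.0.16 in R 4.3.3 (filterByExpr, TMM scaling, robust glmQLFit, glmQLFTest, region as the only term), with Benjamini-Hochberg adjustment over 15554 genes. CPM are TMM-scaled, and RPKM are CPM per kilobase of merged exons. A lower bound of fold change sets each library of a region that had 3 counts or fewer in every library to 3 counts. Ratios were compared by a two-sided exact permutation test. Intervals and bounds cover counting error only. Alternatives were DESeq2 1.42.0, limma 3.58.1 (voom), RLE, upper quartile, or library total scaling, omitting the filter or the fold change threshold, a minimum of 10 counts per library, glmTreat, thinned counts, a replicate block, and each library left out in turn. The procedure was tested on simulated data. Summaries used Python 3.11.15 with pandas 2.3.3 and SciPy 1.17.1, and plots matplotlib 3.10.9.

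The genes and lists were chosen with earlier results of these data known. All metalloproteinases and inhibitors are named, and from each other pathway list the called genes with the 3 highest mean CPM in each direction and up to 2 that were not called. *Egf*, the AP-1 genes with *Atf3*, the neutrophil markers, and genes that could not be tested were named after their values were seen, to complete counts. Marker lists give counts and sums.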

Additional observations from a re-analysis of the deposited data

How the results depend on the processing

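The direction of all 10 metalloproteinase genes was the same under every alternative in which they were tested, and so were the calls, except that *Mmp16* (-0.73) passed with no fold change threshold. Requiring at least 10 counts in every library removed *Mmp3*, *Mmp8*, *Mmp12*, and *Mmp13*, so that 3 of the 10 genes, 2 other metalloproteinases, 5 activators, and 8 cytokines were called higher. Without a fold change threshold 11 transcription factors were called higher and 5 lower, and with glmTreat 1 substrate was. *Mmp28* was called under 10 and *Reck* lost its call under 2 of the alternatives. Calls of all genes ranged from 2789 to 5324 higher and from 2329 to 4787 lower. Limma voom gave log2 fold changes of 11.59 for *Mmp3*, 11.78 for *Mmp13*, 11.43 for *Mmp12*, and 7.66 for *Mmp8*. Scaling by library totals moved the median over all tested genes by 0.20 on the log2 scale. The records do not say whether libraries with equal numbers came from the same mouse. Deviations from the region mean correlated at -0.19, 0.10, and 0.0011 for equal numbers and at -0.24 to 0.18 for unequal ones. With so few libraries these values cannot show whether mice were shared. With the replicate number as a block, 7 of the 10 genes were called higher and 2 lower, and 3945 and 3222 of all genes, which is within 1.5 times of the values without it; *Mmp2* had a log2 fold change of 5.97. Leaving out 1 library gave 5.86 to 6.06 for *Mmp2*, 9.82 to 13.53 for *Mmp3*, 9.94 to 11.24 for *Mmp13*, and -3.20 to -2.34 for *Mmp17*. The share of *Mmp16*, *Mmp17*, and *Mmp24* was 78.9% in contralateral cortex and 1.17% in infarcts with the length of the longest coding transcript. Depth limits *Mmp8*, *Mmp10*, *Mmp21*, and *Mmp27*, and 3 libraries per region cannot give a permutation *p* under 0.1.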
